A study of Homo sapiens with 10 samples.

Results

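The genes described here are the protein-coding genes of human chromosome 19 whose symbol is ZNF followed by a number. They were chosen by symbol and by the chromosome column of the count tables, and 239 of 57445 gene identifiers met both conditions. Expression was measured by RNA-seq in PC3 cells, an established line from a human prostate cancer, in 5 groups of 2 libraries. The first hairpin group (RNF2 shRNA1) and the second (RNF2 shRNA2) stably expressed short hairpin RNAs directed at RNF2, the ubiquitin ligase subunit of Polycomb repressive complex 1, which marks histone H2A on silenced genes. PC3 cells exposed for 48 hours to PRT4165, an inhibitor of that ligase activity, or to GW-516, a compound known here by its code name, made up the next 2 groups. The fifth group stably expressed a Scramble hairpin. Neither a dose nor a vehicle control is labelled, and whether the compound-treated cells carried a hairpin is not stated. Separate cultures for the libraries are not stated either, so p-values measure the spread between these libraries, which may be technical.

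Genes of this class encode tandem C2H2 zinc fingers, each of which folds around a zinc ion and reads a few bases of DNA. Many also carry a KRAB domain at the start of the protein, which recruits TRIM28 and, through it, the histone methyltransferase SETDB1 and the heterochromatin proteins encoded by CBX1, CBX3 and CBX5. The genes arose by repeated tandem duplication and stand in clusters on chromosome 19, and several of their proteins bind and silence transposable elements. By sequence, 200 of the 239 members had a match to the KRAB domain and 39 had none. The median member encoded 12 finger matches, and ZNF729 had the most, 39.

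The 18-base sequence most widely shared by the coding regions is shown as an example of what the members have in common. Its effect on the assignment of reads was not tested. The sequence lies in the linker that joins one finger to the next, and 74 of the 239 members held it in frame, in 298 copies in all.

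Linker 18-mer: attcatactggagagaaa

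Sharing was uneven across members. A median of 1.10% of the 50-base words of a member's coding sequence was also found in transcripts of another gene, 101 members shared none, and 33 members shared at least 20%. Members with a large shared part are given below as uncertain. Likewise, 7 members had at least 50% of their exons overlapped by another gene on the same strand, 3 of which were tested.

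RNF2 was reduced in only 1 of the hairpin groups. It stood at 12.07 and 11.96 CPM (counts scaled to library size and TMM-normalized) in RNF2 shRNA1, 33.5 and 35.3 in the libraries labelled RNF2 shRNA2, 29.1 and 29.1 under PRT4165, 26.9 and 28.1 under GW-516, and 30.6 and 28.3 in Scramble. The difference from Scramble was -1.29 ± 0.06 log2 (SE; adjusted p = 2.34e-15) in RNF2 shRNA1 against 0.23 ± 0.05 (adjusted p = 0.00103) for RNF2 shRNA2. In the RNF2 shRNA2 libraries BMI1, the partner of RNF2 in the complex, had 53.0 and 61.6 CPM, against 251 and 255 CPM in Scramble (-2.14 ± 0.05 log2, adjusted p = 9.82e-12). The measured RNF2 level thus goes against the second hairpin label, and the library names in the file headers carry a number in place of a hairpin name there and a prefix other than PC3 throughout. Total counts ran from 65877850 to 108380198 per library. Epithelial keratin KRT8 ranged from 95.9 to 180 CPM, the luminal prostate genes KLK3, KLK2 and TMPRSS2 reached at most 0.0837 CPM in a library, and the haematopoietic markers at most 0.438 CPM. Of the stromal and endothelial markers COL1A1 ranged from 15.2 to 46.9 CPM, and the others reached at most 0.904 CPM. The 2 libraries of Scramble, of RNF2 shRNA1 and of GW-516 were nearly identical within their group: after counts were halved because both ends of a fragment were counted, chi-square per degree of freedom was 1.09 in RNF2 shRNA1, 1.10 in GW-516 and 1.08 in Scramble, against 6.11 in RNF2 shRNA2 and 3.44 in PRT4165. Where the call that named a member is lost when these near-identical pairs are summed to 1 sample each, this is stated. The counts of all members called in a comparison are also given with the pairs summed. Counts by cluster, by KRAB match and for the corepressor list, and the members called in both hairpin groups, come from the unsummed fit only.

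Of the 239 members, 164 (68.6%) had counts high enough to test. The share was 67.0% among the 1209 other protein-coding genes of chromosome 19 and 85.7% among the 230 protein-coding ZNF genes on other chromosomes. The remaining 75 members comprised 29 with 0 counts in all 10 libraries, 30 with 1 to 10 counts in all and 16 with more, up to 72 for ZNF93. Levels per transcript length were low: the median tested member had 2.02 RPKM (CPM per kilobase of exons, mean over groups), against 5.64 RPKM for the tested other genes of the chromosome and 2.71 RPKM for tested ZNF genes elsewhere. The 134 tested members with a KRAB match had a median of 1.71 RPKM and the 30 without one 3.26 RPKM.

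A few members stood far above this level. ZNF146, which consists almost wholly of zinc fingers and has no KRAB match, was the highest at 50.7 RPKM. It had 236 and 233 CPM in RNF2 shRNA1, 228 and 244 in RNF2 shRNA2, 191 and 176 under PRT4165, 181 and 183 under GW-516, and 214 and 217 CPM in Scramble. It was above Scramble in both hairpin groups (0.12 ± 0.04 and 0.13 ± 0.04 log2, adjusted p = 0.00723 and 0.00504) and below it under PRT4165 (-0.23 ± 0.04, adjusted p = 1.59e-05) and GW-516 (-0.24 ± 0.04, adjusted p = 4.62e-06). ZNF121 followed at 25.9 RPKM, then ZNF317 at 18.1, ZNF581 at 14.7 and ZNF358 at 14.6. ZNF121 stood at 162 and 161 CPM in RNF2 shRNA1, 116 and 118 in RNF2 shRNA2, 101 and 87.1 under PRT4165, 77.3 and 80.2 under GW-516, and 102 and 102 CPM in Scramble. Its groups ran in a wide order, with RNF2 shRNA1 highest and GW-516 lowest, and only PRT4165 did not pass the test against Scramble (adjusted p = 0.0919). At the ends of the array, the first member along the chromosome, ZNF554, had 0.566 RPKM and did not pass the test in any comparison with Scramble (adjusted p from 0.0562 to 0.384). The last, ZNF446, had 1.05 RPKM and was lower in RNF2 shRNA1 (-0.34 ± 0.11 log2, adjusted p = 0.00982) and RNF2 shRNA2 (-0.34 ± 0.10, adjusted p = 0.0106).

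**Figure D1:**
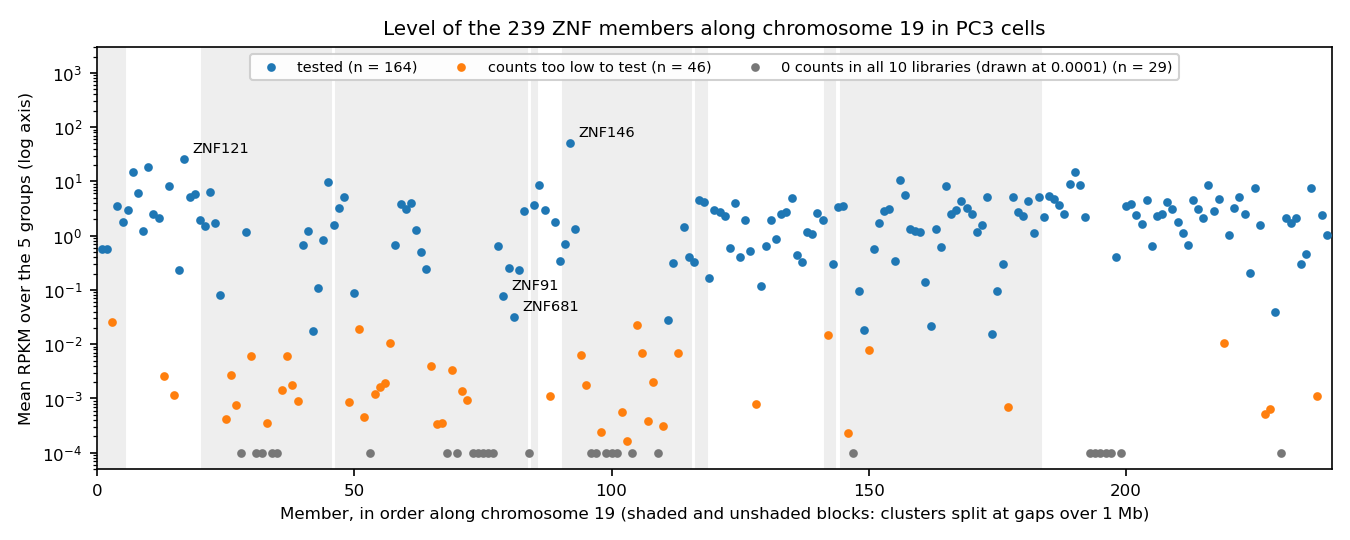
Mean RPKM over the 5 groups (log axis) of the 239 members in their order along chromosome 19, with blocks of background marking clusters split at gaps over 1 Mb. The 164 tested members lie mostly between 0.1 and 10 RPKM, ZNF146 is highest at 50.7 RPKM, and members with few or 0 counts sit side by side in stretches.

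Most members with too few counts to test stood beside others like them. Whether this exceeds a random placement was not tested. Consecutive members that could not be tested formed 6 runs of at least 4, which together held 56 of the 75. The longest run held 17 members from ZNF260 to ZNF793 (chr19:37001597-38039664, GRCh37), among them ZNF382, ZNF420, ZNF568, ZNF569 and ZNF570. In it 7 members had 0 counts in all 10 libraries, which allows a level of up to 0.00391 CPM over the 767074040 counts summed (the limit of 3 counts, for counting error only, and too low since both ends of a fragment were counted), and the most counted, ZNF383, had 66 counts in all. The run begins beside expressed members: ZNF566, next to it, stood at 8.49 CPM over the groups, and ZNF146, one further, at 210 CPM. On its other side ZNF540 had 0.119 CPM and ZNF571 1.89 CPM. None of the 17 was overlapped by another gene on its strand, the median shared part of their coding sequence was 0%, and 15 had a KRAB match. Their promoters held a median of 22.0 CG dinucleotides per 300 bases, against 21.0 in the 143 tested members with a promoter sequence and 14.0 in all 27305 promoters.

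The other runs were alike in level. From ZNF429 to ZNF730 (chr19:21679484-23330021), 13 members had 37 counts in all libraries together, and 7 of them had 0. From ZNF763 to ZNF442 (chr19:12035890-12476719), 10 members had 54 counts, although ZNF763, ZNF20 and ZNF625 among them had at least 50% of their exons overlapped. From ZNF93 to ZNF66 (chr19:20011722-20991922), 7 members had 117 counts. In the run ZNF582, ZNF583, ZNF667, ZNF471 and ZNF470 (chr19:56887413-57100279) all 5 members had 0 counts in every library, and 4 members from ZNF491 to ZNF69 (chr19:11908482-12025144) had 17. The highest value of these members in any library was 0.293 CPM.

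With gaps over 1 Mb taken as boundaries, the members fell into 16 clusters. The share tested ran from 7 of 25 in the cluster ZNF565 to ZNF573 (chr19:36673188-38307940) and 16 of 37 in ZNF101 to ZNF254 (chr19:19779605-24312654) to 22 of 23 in ZNF575 to ZNF296 (chr19:44029649-45579846), 35 of 39 in ZNF175 to ZNF331 (chr19:52074551-54083523) and 45 of 56 in ZNF628 to ZNF446 (chr19:55987699-58992597).

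In RNF2 shRNA1 the members changed in both directions in equal number. Against Scramble 45 of 164 tested members were higher and 45 lower, at an adjusted p below 0.05. Over all 18478 genes tested 54.7% were called, 26.2% higher and 28.6% lower, so the members' shares of 27.4% and 27.4% lay near the background. The median change was 0.05 log2 for members and -0.01 for all genes tested. With the near-identical pairs summed 33 were higher and 25 lower, beside 34.3% of all genes called. Without the first Scramble library 29 were lower. In these bulk libraries fewer cells with a transcript and less RNA per cell cannot be told apart.

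The largest increases in RNF2 shRNA1 stayed near or above a doubling on the log2 scale. ZNF805 had 18.01 and 17.1 CPM in RNF2 shRNA1, against 7.59 and 6.95 CPM in Scramble (1.27 ± 0.09 log2, adjusted p = 7.88e-12). ZNF460, its next neighbour on the same strand (chr19:57791419-57804937), had 14.2 and 14.6 CPM, against 6.48 and 5.98 CPM in Scramble (1.20 ± 0.10, adjusted p = 1.48e-10). These adjacent KRAB members were both higher in RNF2 shRNA1. Members named for the largest changes were limited to those without overlap between the libraries of the groups compared. ZNF699 had 17.3 and 16.1 CPM in RNF2 shRNA1, against 7.41 and 7.66 CPM in Scramble (1.15 ± 0.09, adjusted p = 9.49e-11). ZNF83, the most abundant of the set, had 114 and 114 CPM, against 58.9 and 58.8 CPM in Scramble (0.96 ± 0.04, adjusted p = 1.43e-15). ZNF333, which stands alone in its cluster, had 31.3 and 30.4 CPM, against 15.8 and 17.2 CPM in Scramble (0.90 ± 0.06, adjusted p = 9.08e-12). In RNF2 shRNA2, by label only since RNF2 was not reduced there, the changes of ZNF460 (0.17), ZNF699 (-0.19) and ZNF333 (0.02) did not pass the test (adjusted p = 0.208, 0.113 and 0.835), ZNF805 was higher by 0.25 log2 (adjusted p = 0.0314) and ZNF83 was lower (-0.14, adjusted p = 0.00807).

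The largest decreases in RNF2 shRNA1 were in rarer transcripts. ZNF91 and ZNF675, described below with their neighbours, fell most among members at or above 1 CPM. ZNF792 had 0.528 and 0.780 CPM in RNF2 shRNA1, against 2.08 and 1.61 CPM in Scramble (-1.50 ± 0.23 log2, adjusted p = 3.46e-06). ZNF114 had 0.455 and 0.468 CPM, against 1.28 and 1.17 CPM in Scramble (-1.41 ± 0.25, adjusted p = 3.39e-05). ZNF112 had 2.48 and 2.18 CPM, against 4.47 and 4.30 CPM in Scramble (-0.91 ± 0.13, adjusted p = 1.17e-06). In each the RNF2 shRNA1 libraries lay below both Scramble libraries, as the rule for naming required.

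In the libraries labelled RNF2 shRNA2, 38 members were higher and 31 lower than in Scramble. All genes tested gave 42.1% called, 21.1% higher and 21.0% lower, against 23.2% and 18.9% of members, again near the background. The median was 0.04 log2 for members and 0.01 for all genes. Only 17 higher and 16 lower members were called with the near-identical pairs summed (24.1% of all genes called), and 24 higher and 15 lower without the first Scramble library.

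Increases there were small. ZNF283 had 12.9 and 13.2 CPM in RNF2 shRNA2, against 9.28 and 8.45 CPM in Scramble (0.56 ± 0.08 log2, adjusted p = 4.66e-06). ZNF30 had 7.03 and 7.25 CPM, against 4.70 and 5.31 CPM in Scramble (0.52 ± 0.11, adjusted p = 0.000482). ZNF296, a member without a KRAB match, had 5.19 and 4.30 CPM, against 3.35 and 3.28 CPM in Scramble (0.51 ± 0.13, adjusted p = 0.00332). In all 3 the RNF2 shRNA2 libraries lay above both Scramble libraries, as the rule for naming required. ZNF566, at the edge of the longest silent run, rose by 0.42 ± 0.09 log2 (adjusted p = 0.000262), and ZNF787 by 0.41 ± 0.11 (adjusted p = 0.0151, and 0.102 with the pairs summed). Among the decreases ZNF738 had 0.686 and 0.821 CPM in RNF2 shRNA2, against 2.96 and 2.80 CPM in Scramble (-1.91 ± 0.18, adjusted p = 5.46e-09). ZNF497 had 1.00 and 0.886 CPM, against 1.55 and 1.76 CPM in Scramble (-0.82 ± 0.20, adjusted p = 0.00207). Both are rare transcripts, and ZNF738 gave no finger match in its annotated protein. ZNF114 was lower (-0.75 ± 0.23 log2, adjusted p = 0.00855), a call lost with the pairs summed (adjusted p = 0.0536) and without the first Scramble library (0.0706).

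Between the hairpin groups themselves 86 members differed, 39 higher and 47 lower in RNF2 shRNA2 than in RNF2 shRNA1. All genes tested gave 59.2% called, 29.9% higher and 29.2% lower, against 23.8% and 28.7% of members. With the pairs summed 29 were higher and 44 lower (43.4% of all genes called). ZNF792 (1.09 ± 0.23 log2, adjusted p = 0.000227), ZNF296 (1.18 ± 0.14, adjusted p = 9.90e-08) and ZNF480 (1.03 ± 0.06, adjusted p = 6.54e-14) were the largest increases. ZNF480 had 34.9 and 34.4 CPM in RNF2 shRNA2 and 17.4 and 16.4 CPM in RNF2 shRNA1, beside 29.4 and 29.4 CPM in Scramble. ZNF699 (-1.34 ± 0.09, adjusted p = 3.38e-12), ZNF808 (-1.19 ± 0.11, adjusted p = 9.63e-10) and ZNF665 (-1.14 ± 0.18, adjusted p = 6.79e-06) were the largest decreases. ZNF808 had 4.33 and 4.10 CPM in RNF2 shRNA2 and 8.98 and 10.2 CPM in RNF2 shRNA1, with Scramble between them at 6.68 and 7.51 CPM. Of the 46 members called in both hairpin groups, which share the Scramble libraries, 31 lay on the same side of Scramble and 15, ZNF480 and ZNF808 among them, on opposite sides. The 15 are 9.15% of the members tested, beside 11.9% of all genes tested that were called on opposite sides. Of all 18478 genes tested, 5477 were called in both hairpin groups, 3281 of them on the same side. Among those called in both, 32.6% of members and 40.1% of all genes lay on opposite sides.

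**Figure D2:**
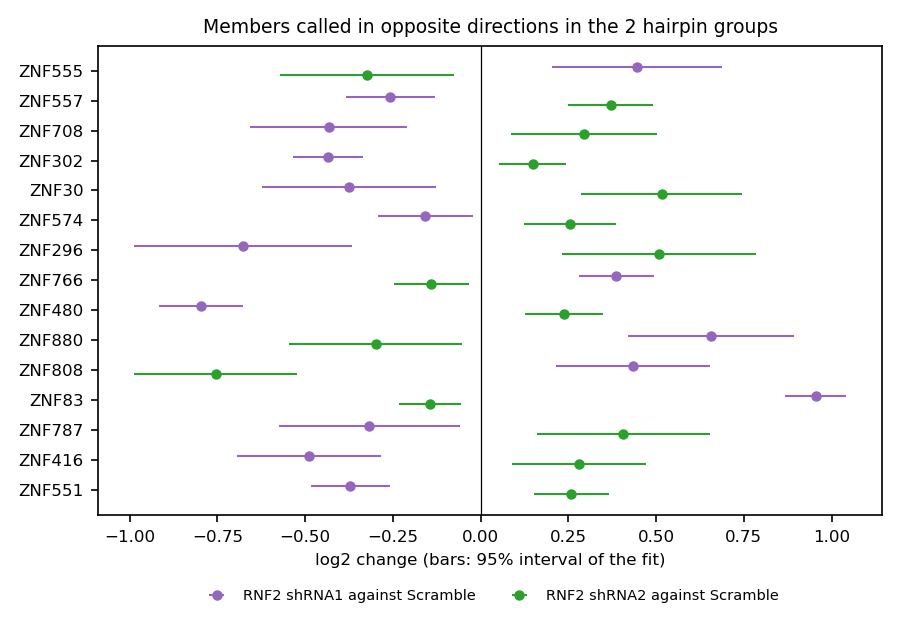
Log2 change against Scramble, with the 95% interval of the fit, of the 15 members called in opposite directions in the hairpin groups, in their order along the chromosome from top to bottom. ZNF83 has the highest value for RNF2 shRNA1 (0.96, beside -0.14 in RNF2 shRNA2), and ZNF480 the lowest (-0.80, beside 0.24 in RNF2 shRNA2).

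Under PRT4165 the members leaned downward. Against Scramble 13 members were higher and 48 lower. All genes tested gave 41.6% called, 19.9% higher and 21.7% lower, against 7.93% and 29.3% of members. The median was -0.10 log2 for members, -0.01 for all genes, -0.03 for the other genes of chromosome 19, of which 18.3% were higher and 23.3% lower, and -0.06 for ZNF genes on other chromosomes, of which 14.2% were higher and 24.4% lower. With the pairs summed 3 members were higher and 31 lower (24.1% of all genes called). Without the first Scramble library 5 were higher, and without the second 6 were higher and 31 lower.

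Apart from the run around ZNF91, the largest decreases under PRT4165 among members at 1 CPM or more in Scramble were smaller than a halving. ZNF628 had 4.88 and 6.38 CPM under PRT4165, against 9.71 and 8.70 CPM in Scramble (-0.72 ± 0.10 log2, adjusted p = 3.95e-06). ZNF296 had 1.89 and 2.18 CPM, against 3.35 and 3.28 CPM in Scramble (-0.71 ± 0.15, adjusted p = 0.000372). Neither has a KRAB match. Several of the increases lost their call without 1 library. ZNF226 had 18.99 and 18.6 CPM under PRT4165, against 15.3 and 14.9 CPM in Scramble (0.31 ± 0.06, adjusted p = 0.000250). ZNF221 (0.71 ± 0.22, adjusted p = 0.00996), ZNF225 (0.35 ± 0.12, adjusted p = 0.0240) and ZNF846 (0.31 ± 0.09, adjusted p = 0.00862) lost their calls with the pairs summed (adjusted p = 0.0642, 0.0960 and 0.0712) and without the first Scramble library (0.0862, 0.259 and 0.0720). ZNF841 (0.29 ± 0.08, adjusted p = 0.00325) lost its call without the second Scramble library (0.0573). ZNF221, ZNF225 and ZNF226 stand in 1 cluster, and ZNF225 and ZNF226 were also higher in RNF2 shRNA1 (0.48 and 0.74 log2, adjusted p = 0.00170 and 2.77e-10) and under GW-516 (0.53 and 0.26, adjusted p = 0.000467 and 0.000897).

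Under GW-516, 25 members were higher and 44 lower than in Scramble. All genes tested gave 55.5% called, 26.5% higher and 29.0% lower, against 15.2% and 26.8% of members. The median was -0.05 log2 for members and 0.00 for all genes. With the pairs summed 14 were higher and 23 lower (33.8% of all genes called), and 26 were lower without the second Scramble library or without the first GW-516 library.

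The members that rose under GW-516 included several of the cluster from ZNF175 to ZNF331. ZNF600 had 18.6 and 18.5 CPM under GW-516, against 12.1 and 12.6 CPM in Scramble (0.59 ± 0.06 log2, adjusted p = 2.93e-08), although 23.8% of its coding words are shared with other genes. ZNF432 had 12.6 and 13.4 CPM, against 8.51 and 9.62 CPM in Scramble (0.52 ± 0.08, adjusted p = 5.56e-06). ZNF296 had 4.92 and 4.57 CPM, against 3.35 and 3.28 CPM in Scramble (0.52 ± 0.13, adjusted p = 0.00196), the opposite side of Scramble from PRT4165. ZNF490 (0.54 ± 0.12, adjusted p = 0.000348) is uncertain, as 61.3% of its exons are overlapped by another gene. Among the decreases ZNF180 had 7.67 and 6.51 CPM under GW-516, against 12.1 and 10.96 CPM in Scramble (-0.70 ± 0.10, adjusted p = 2.63e-06). ZNF333 had 11.5 and 10.4 CPM, against 15.8 and 17.2 CPM in Scramble (-0.59 ± 0.07, adjusted p = 4.75e-08). ZNF333 thus lay below Scramble under GW-516 and above it in RNF2 shRNA1.

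Between the compounds, 37 members were higher and 12 lower under GW-516 than under PRT4165. All genes tested gave 41.1% called, 18.1% higher and 23.0% lower, against 22.6% and 7.32% of members, and the medians were 0.10 log2 for members and 0.00 for all genes. With the pairs summed 10 were higher and 8 lower (22.4% of all genes called), and 19 or 20 were higher without the first or the second GW-516 library. ZNF296 was higher by 1.22 ± 0.14 log2 (adjusted p = 1.41e-07), with 4.92 and 4.57 CPM under GW-516 and 1.89 and 2.18 CPM under PRT4165. ZNF468 was higher by 0.53 ± 0.07 (adjusted p = 4.59e-07) and ZNF114 by 0.77 ± 0.22 (adjusted p = 0.00611, and 0.0524 with the pairs summed). ZNF333 (-0.55 ± 0.07, adjusted p = 3.59e-07) and ZNF331 (-0.51 ± 0.04, adjusted p = 1.56e-09) were lower. ZNF331 had 28.4 and 28.1 CPM under GW-516 and 40.6 and 39.8 CPM under PRT4165. ZNF221 (-0.56 ± 0.21, adjusted p = 0.0338) lost its call with the pairs summed (adjusted p = 0.150). Doses are not given for either compound.

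**Figure D3:**
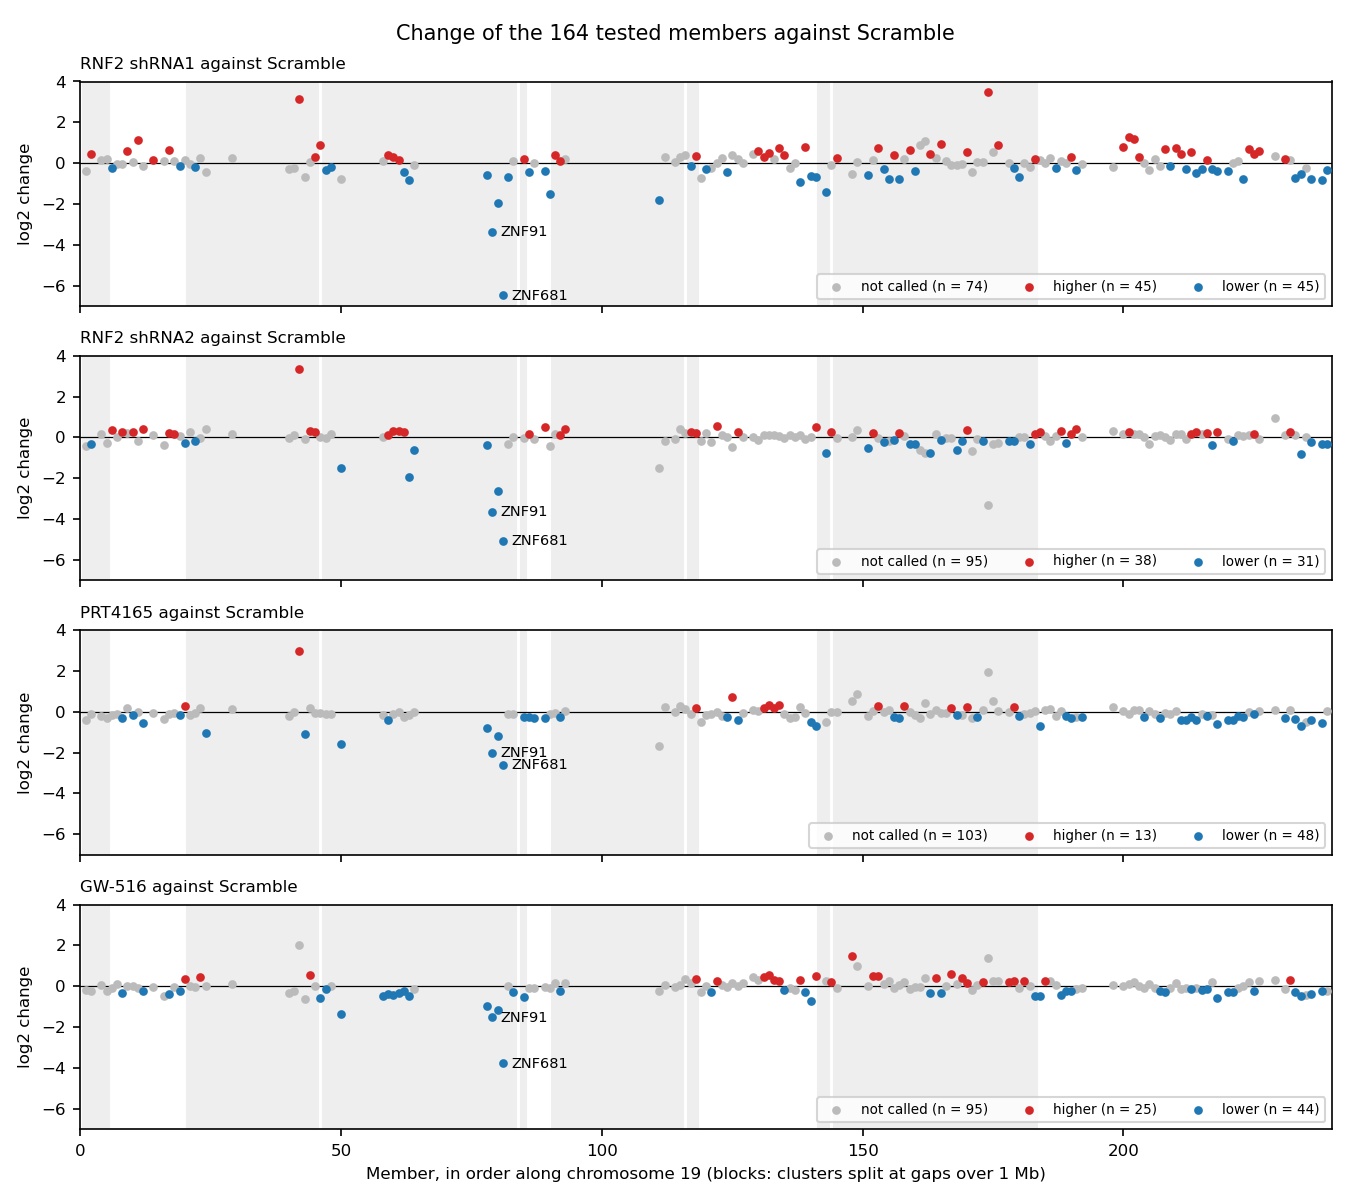
Log2 change against Scramble of the 164 tested members in their order along the chromosome, with called members in red (higher) and blue (lower). The lowest values in every panel belong to ZNF681 and ZNF91, while under PRT4165 most called members (48 of 61) lie below 0.

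In each of the 4 comparisons with Scramble the deepest decreases called were those of ZNF681 and ZNF91, which stand in a run of 4 members. In order they are ZNF724, ZNF91, ZNF675 and ZNF681, consecutive members between chr19:23404401 and 23941693 (GRCh37), at the end of the silent run that closes with ZNF730. All 4 are on the minus strand, against 45.6% of members, and all 4 have a KRAB match. ZNF91 is known for silencing SVA retrotransposons, a primate-specific class of mobile element.

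ZNF91 stood at 0.279 and 0.156 CPM in RNF2 shRNA1, 0.143 and 0.205 in RNF2 shRNA2, 0.442 and 0.707 under PRT4165, 0.750 and 0.829 under GW-516, and 2.48 and 2.07 CPM in Scramble. Its differences from Scramble were -3.37 ± 0.32, -3.66 ± 0.31, -2.0 ± 0.27 and -1.53 ± 0.25 log2 in that order (adjusted p = 1.77e-09, 8.02e-10, 1.33e-06 and 1.43e-05). The Scramble libraries thus lay above all 8 others, as the choice of members called lower in every group brings with it. The hairpin groups were lowest. ZNF675 stood at 0.968 and 0.920 CPM in RNF2 shRNA1, 0.586 and 0.597 in RNF2 shRNA2, 1.73 and 1.54 under PRT4165, 1.73 and 1.54 under GW-516, and 4.16 and 3.25 CPM in Scramble. Its differences were -1.97 ± 0.19, -2.64 ± 0.19, -1.18 ± 0.17 and -1.18 ± 0.17 log2 (adjusted p = 1.87e-09, 4.50e-11, 3.66e-06 and 1.50e-06). Scramble was again highest and the hairpin groups lowest, and RNF2 shRNA2 was also below RNF2 shRNA1 (-0.67 ± 0.22, adjusted p = 0.0125).

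ZNF681 was nearly absent outside Scramble. Both libraries together held 1 count in RNF2 shRNA1, 4 in RNF2 shRNA2, 20 under PRT4165, 10 under GW-516 and 112 in Scramble. Per total count this was 110-fold lower in RNF2 shRNA1 (95% exact interval 19.4 to 4393), 36.4-fold in RNF2 shRNA2 (13.8 to 136), 6.03-fold under PRT4165 (3.72 to 10.2) and 13.3-fold under GW-516 (6.99 to 28.6). The intervals cover counting error only, and they are too narrow because each end of a fragment was counted. ZNF724 changed least: it had 1.86 and 2.15 CPM in RNF2 shRNA1, 2.12 and 2.43 in RNF2 shRNA2, 1.59 and 1.85 under PRT4165, 1.51 and 1.55 under GW-516, and 2.83 and 3.16 CPM in Scramble. Its differences were -0.58, -0.39, -0.80 and -0.97 log2 (SE 0.15 to 0.16, adjusted p = 0.00359, 0.0457, 0.000233 and 1.42e-05), and the hairpin calls were lost with the pairs summed (adjusted p = 0.0593 and 0.159). Its coding sequence shares 82.7% of its words with other genes, so its counts are uncertain.

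Beyond the run on the side away from the silent stretch, the members did not share the decrease in every group. ZNF254, the next member but one (chr19:24216276-24312654), had 23.0 and 23.6 CPM in RNF2 shRNA1, 22.4 and 21.1 in RNF2 shRNA2, 20.9 and 18.7 under PRT4165, 17.2 and 18.7 under GW-516, and 22.4 and 20.7 CPM in Scramble, and only GW-516 differed from Scramble (-0.26 log2, adjusted p = 0.00140). ZNF726, between them, was lower in RNF2 shRNA1 (-0.67, adjusted p = 0.0102) and did not pass in the other groups (adjusted p = 0.236 to 0.935). The pseudogene IPO5P1, which lies between ZNF724 and ZNF91, was lower in RNF2 shRNA1 (-1.41, adjusted p = 2.48e-06) and in RNF2 shRNA2 (-0.83, adjusted p = 0.000894), and did not pass under PRT4165 (-0.33, adjusted p = 0.164) or GW-516 (-0.02, adjusted p = 0.938). All 4 comparisons share the Scramble libraries, so a trait of the Scramble cells and a response of the other groups cannot be told apart.

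**Figure D4:**
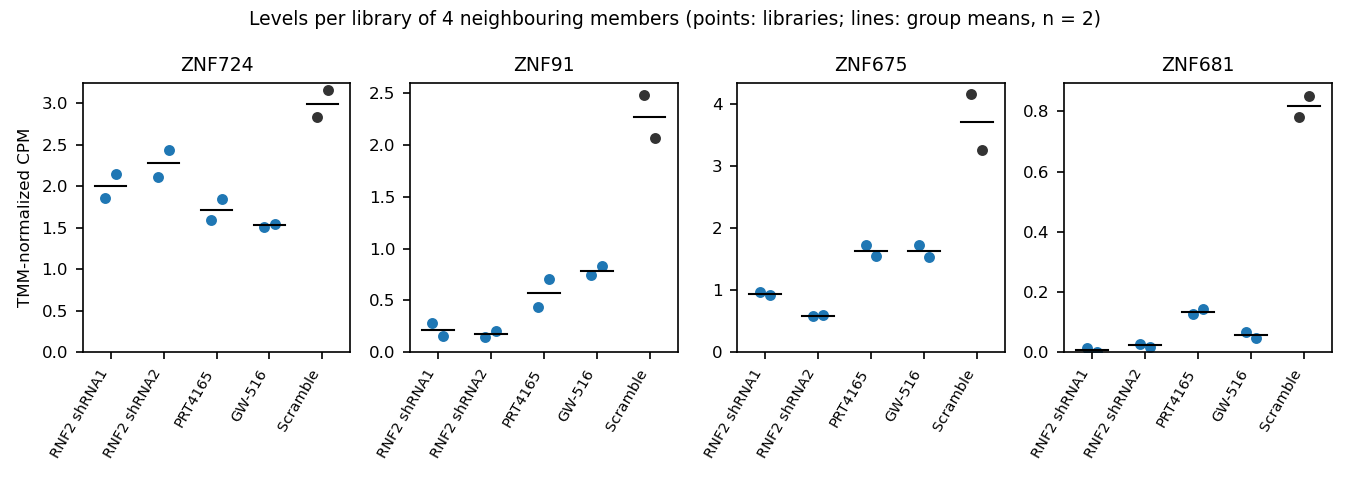
CPM in each library of ZNF724, ZNF91, ZNF675 and ZNF681, with group means as lines (n = 2). Both Scramble libraries stand above all 8 other libraries in every panel, ZNF681 at 0.782 and 0.851 CPM against at most 0.144 CPM elsewhere.

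The promoters of these neighbours are shown because they are copies of one another. RefSeq promoters (GRCh38.p14, 250 bases before to 50 after the gene start) were matched by symbol for 208 of the 239 members. Aligned pairwise, the 4 were 82.7% to 86.9% identical over their aligned bases. Capitals mark the words of at least 10 bases that all 4 hold. All are on the minus strand, ZNF724 at chr19:23250345-23250644, ZNF91 at chr19:23395422-23395721, ZNF675 at chr19:23687163-23687462 and ZNF681 at chr19:23758842-23759141.
ZNF724 promoter: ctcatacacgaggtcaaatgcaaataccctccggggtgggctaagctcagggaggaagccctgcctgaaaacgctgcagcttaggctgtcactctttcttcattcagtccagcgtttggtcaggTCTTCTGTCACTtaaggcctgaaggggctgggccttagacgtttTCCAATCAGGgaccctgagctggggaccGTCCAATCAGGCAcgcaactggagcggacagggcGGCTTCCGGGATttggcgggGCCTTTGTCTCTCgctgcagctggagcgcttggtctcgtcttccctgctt
ZNF91 promoter: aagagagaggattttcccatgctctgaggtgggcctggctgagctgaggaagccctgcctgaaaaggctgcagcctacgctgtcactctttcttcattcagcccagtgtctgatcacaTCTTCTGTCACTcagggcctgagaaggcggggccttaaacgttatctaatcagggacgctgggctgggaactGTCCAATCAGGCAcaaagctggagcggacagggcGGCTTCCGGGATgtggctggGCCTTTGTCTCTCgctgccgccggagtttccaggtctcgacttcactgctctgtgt
ZNF675 promoter: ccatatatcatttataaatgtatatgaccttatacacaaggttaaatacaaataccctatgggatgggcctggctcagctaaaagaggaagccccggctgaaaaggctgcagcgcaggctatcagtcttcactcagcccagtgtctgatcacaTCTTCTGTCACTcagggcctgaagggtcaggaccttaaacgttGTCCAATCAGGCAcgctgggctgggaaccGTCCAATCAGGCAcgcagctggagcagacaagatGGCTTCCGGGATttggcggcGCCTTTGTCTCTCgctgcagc
ZNF681 promoter: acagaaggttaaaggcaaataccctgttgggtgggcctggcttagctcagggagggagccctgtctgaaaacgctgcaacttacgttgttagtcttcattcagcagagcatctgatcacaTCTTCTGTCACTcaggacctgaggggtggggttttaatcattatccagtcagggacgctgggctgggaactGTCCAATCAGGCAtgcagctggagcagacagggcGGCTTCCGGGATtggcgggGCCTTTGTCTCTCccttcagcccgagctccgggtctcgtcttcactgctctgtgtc

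The words were found by comparing the 4 sequences after the expression values were seen, and were counted on both strands. The word tcttctgtcact was held by 19 of 208 member promoters (9.13%) and 23 of all 27305 (0.0842%). The word gtccaatcaggca was held by 16 member promoters (7.69%) and 23 of all (0.0842%), ggcttccgggat by 14 (6.73%) and 25 of all (0.0916%), and gcctttgtctctc by 10 (4.81%) and 13 of all (0.0476%). The shorter tccaatcagg, which lies within the second word, was held by 43 member promoters (20.7%) and 0.388% of all. The 4 longer words thus recur mainly among members, but not only among the 4 of the run: gtccaatcaggca was in 8 tested and 8 untested members. Of the common elements, CCAAT lies within gtccaatcaggca, so its presence in all 4 follows from the choice of that word. CCAAT was in 52.9% of members and in 35.7% of all promoters. GGGCGG was in 3 of the 4, 69.7% of members and 44.6% of all, and TATAAA in 1 of the 4, 1.92% of members and 11.95% of all. A match describes the letters and not the binding of a factor.

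Calls were also counted by cluster. The cluster ZNF101 to ZNF254, which holds the run, had 3 of 16 tested members higher and 9 lower in RNF2 shRNA1, 4 and 7 in RNF2 shRNA2, 0 and 6 under PRT4165, and 0 and 13 under GW-516. The cluster ZNF628 to ZNF446 at the end of the long arm had 14 of 45 higher and 15 lower in RNF2 shRNA1, 11 and 7 in RNF2 shRNA2, 0 and 22 under PRT4165, and 2 and 17 under GW-516. These clusters, with 16 and 45 of the 164 tested members, held most of the members lower under the compounds, and few that were higher. Over all genes tested, 26.2% were higher and 28.6% lower in RNF2 shRNA1, and 21.1% and 21.0% in RNF2 shRNA2. The shares were 19.9% and 21.7% under PRT4165, and 26.5% and 29.0% under GW-516. The cluster ZNF175 to ZNF331 had 10 of 35 higher and 7 lower in RNF2 shRNA1, 4 and 13 in RNF2 shRNA2, 5 and 5 under PRT4165, and 11 and 3 under GW-516. In the cluster ZNF575 to ZNF296, 6 of 22 were higher and 5 lower in RNF2 shRNA1, 3 and 0 in RNF2 shRNA2, 5 and 4 under PRT4165, and 7 and 4 under GW-516. Differences between clusters were not tested. Neighbouring tested members had the same sign of change in 54.6% of 163 pairs in RNF2 shRNA1, 53.4% in RNF2 shRNA2, 56.4% under PRT4165 and 59.5% under GW-516, beside 51.3%, 52.9%, 54.3% and 49.8% of 809 pairs of other genes of the chromosome, as a description only.

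**Figure D5:**
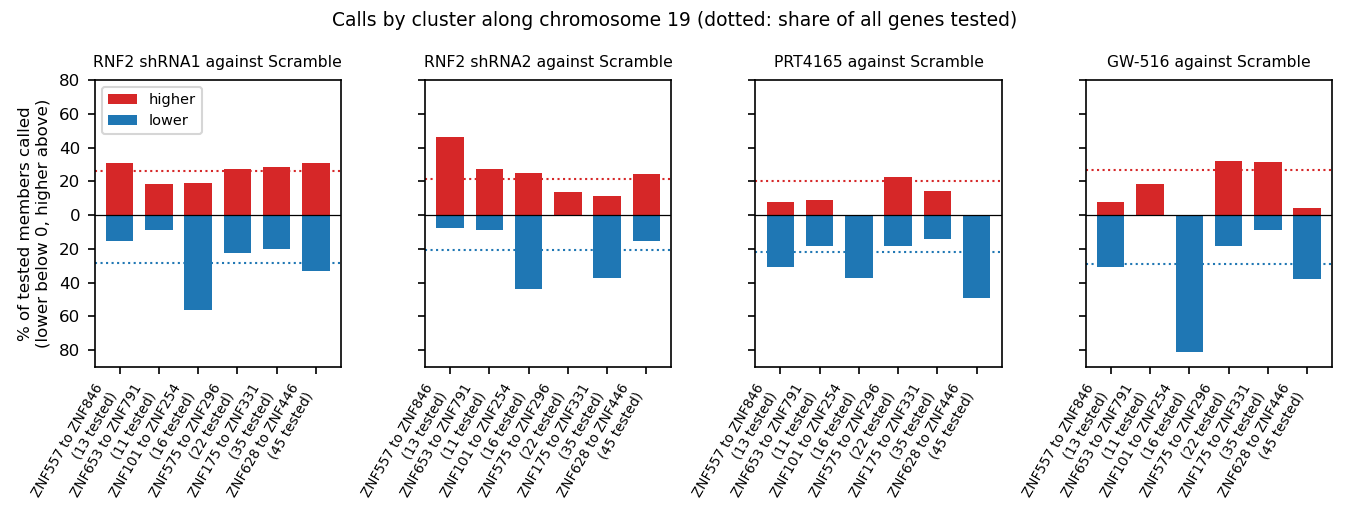
Percent of tested members called higher (red) and lower (blue) against Scramble in the 6 clusters with at least 10 tested members, in chromosome order, with dotted lines at the share of all genes tested. The cluster ZNF101 to ZNF254 has 13 of 16 lower under GW-516, and ZNF628 to ZNF446 has 22 of 45 lower and 0 higher under PRT4165.

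Other members were named because they were called on the same side of Scramble in every group. ZNF584 had 19.7 and 20.5 CPM in RNF2 shRNA1, 30.6 and 29.6 in RNF2 shRNA2, 26.4 and 26.3 under PRT4165, 26.4 and 26.8 under GW-516, and 34.6 and 34.8 CPM in Scramble. Its differences were -0.79, -0.21, -0.40 and -0.38 log2 (SE 0.05 each, adjusted p = 2.04e-12, 0.00123, 3.72e-07 and 3.02e-07). ZNF324, near the end of the same cluster, was lower by -0.84, -0.32, -0.54 and -0.21 log2 (SE 0.08 each), with 31.7% of its words shared and its GW-516 call (adjusted p = 0.0218) lost with the pairs summed (0.209). ZNF497 was lower by -0.54, -0.82, -0.68 and -0.49 log2 and kept its call with the pairs summed only in RNF2 shRNA2. On the higher side ZNF526 had 19.6 and 18.9 CPM in RNF2 shRNA1, 18.1 and 17.7 in RNF2 shRNA2, 16.7 and 18.7 under PRT4165, 19.7 and 20.1 under GW-516, and 15.5 and 15.1 CPM in Scramble. Its differences were 0.33, 0.22, 0.20 and 0.37 log2 (SE 0.06 each), and the calls of RNF2 shRNA2 and PRT4165 were lost with the pairs summed (adjusted p = 0.0940 and 0.0972). These comparisons also share the Scramble libraries.

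Members were also counted by KRAB match, and the difference between the kinds was not tested. Tested members with a match had a median of 7.68 CPM and those without one 12.5 CPM. In RNF2 shRNA2, 25 of 134 tested members with a match were higher and 27 lower, while 13 of 30 without one were higher and 4 lower. The median changes there were 0.02 and 0.12 log2. Under GW-516, 21 of 134 with a match were higher and 30 lower, while 4 of 30 without one were higher and 14 lower, with median changes of -0.01 and -0.23 log2. Under PRT4165, 12 of 134 with a match were higher and 36 lower, while 1 of 30 without one was higher and 12 lower, with medians of -0.09 and -0.21 log2. In RNF2 shRNA1 the counts were 37 and 36 with a match and 8 and 9 without, with medians of 0.07 and -0.03 log2. Beside these, 26.2% of all genes tested were higher and 28.6% lower in RNF2 shRNA1, and 21.1% and 21.0% in RNF2 shRNA2. The shares of all genes tested were 19.9% and 21.7% under PRT4165, and 26.5% and 29.0% under GW-516.

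Most genes on a list of KRAB corepressor and heterochromatin genes were lower in RNF2 shRNA1 and under GW-516. Of 23 listed genes 22 were matched and tested. In RNF2 shRNA1, 3 were higher and 17 lower (median -0.17 log2); in RNF2 shRNA2, 4 and 5 (0.01); under PRT4165, 4 and 8 (-0.09); and under GW-516, 2 and 17 (-0.32). Of all genes tested, 26.2% were higher and 28.6% lower in RNF2 shRNA1, 21.1% and 21.0% in RNF2 shRNA2, 19.9% and 21.7% under PRT4165, and 26.5% and 29.0% under GW-516, with medians of -0.01, 0.01, -0.01 and 0.00 log2. TRIM28, the corepressor bound by the KRAB domain, had 352 and 352 CPM in RNF2 shRNA1, 519 and 534 in RNF2 shRNA2, 418 and 435 under PRT4165, 399 and 392 under GW-516, and 509 and 504 CPM in Scramble. It was lower in RNF2 shRNA1 (-0.53 ± 0.03 log2, adjusted p = 3.08e-14), under PRT4165 (-0.25 ± 0.03, adjusted p = 5.26e-08) and under GW-516 (-0.36 ± 0.03, adjusted p = 4.09e-11), and did not pass in RNF2 shRNA2 (0.05, adjusted p = 0.109). DNMT1, the maintenance DNA methyltransferase, was lower in RNF2 shRNA1 (-0.56, adjusted p = 6.38e-15), under PRT4165 (-0.15, adjusted p = 3.70e-05) and under GW-516 (-0.47, adjusted p = 1.81e-13), and higher in RNF2 shRNA2 (0.20, adjusted p = 1.01e-06). SETDB1, named here after its values were seen, was higher in RNF2 shRNA1 (0.41, adjusted p = 2.11e-08) and RNF2 shRNA2 (0.26, adjusted p = 3.08e-05), lower under GW-516 (-0.13, adjusted p = 0.0140) and did not pass under PRT4165 (0.11, adjusted p = 0.0620). CHD4, a remodeller of the NuRD complex, was lower in RNF2 shRNA1 (-0.44, adjusted p = 9.57e-13) and higher under PRT4165 (0.07, adjusted p = 0.0303). HDAC1 was lower in RNF2 shRNA1 (-0.29, adjusted p = 3.01e-09), under PRT4165 (-0.12, adjusted p = 0.000923) and under GW-516 (-0.29, adjusted p = 2.51e-09). CBX5, which encodes heterochromatin protein HP1 alpha, was lower under GW-516 (-0.72, adjusted p = 2.85e-16) and in RNF2 shRNA2 (-0.40, adjusted p = 3.85e-11). It was lower by less in RNF2 shRNA1 (-0.12, adjusted p = 0.000675). CHD3 was lower in RNF2 shRNA2 (-0.54, adjusted p = 1.05e-13), under PRT4165 (-0.32, adjusted p = 1.43e-09) and under GW-516 (-0.56, adjusted p = 1.59e-14). It was lower by less in RNF2 shRNA1 (-0.09, adjusted p = 0.0120). ATRX, a heterochromatin remodeller, was higher in RNF2 shRNA1 (0.41, adjusted p = 4.31e-09), in RNF2 shRNA2 (0.54, adjusted p = 8.07e-11), under PRT4165 (0.38, adjusted p = 3.87e-08) and under GW-516 (0.13, adjusted p = 0.00662). TASOR of the HUSH silencing complex was lower in RNF2 shRNA1 (-0.13, adjusted p = 0.00572), in RNF2 shRNA2 (-0.45, adjusted p = 7.57e-10) and under GW-516 (-0.48, adjusted p = 1.39e-10). HDAC2 was lower in RNF2 shRNA1 (-0.21, adjusted p = 1.08e-06), under PRT4165 (-0.24, adjusted p = 1.84e-07) and under GW-516 (-0.43, adjusted p = 3.33e-12). Whether these levels bear on the members was not tested.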

How the data were processed

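Counts per gene were deposited raw, 1 table per library; per the file headers they were made with featureCounts 1.4.3-p1, strand option 2 and GENCODE 18, with no read-pair option, so each end was counted. hg19 (GRCh37) is the build, per the submitters' processing notes, which also list STAR and DESeq2 1.8.1 without a role. Identifiers were matched to GENCODE 29 symbols (51812 of 57445). The counts were fitted with edgeR 4.0.16 (TMM, minimum count 10, 1 coefficient per group over 10 libraries, robust quasi-likelihood tests, two-sided), with Benjamini-Hochberg adjustment over 18478 genes and calls below 0.05. Alternatives were other size factors, filters, DESeq2 1.42.0, limma-voom (limma 3.58.1), a replicate block, summed near-identical pairs, single libraries left out and other member or cluster limits. On simulated counts for RNF2 shRNA1 against Scramble (17780 genes) 62% of changes of 1.25-fold, 72.9% of 1.5-fold and 81.6% of 2-fold were recovered. The simulated counts had the same spread in all genes and groups, unlike these libraries. Named members were, per comparison with Scramble, the 5 largest called increases and decreases at 1 CPM or more without overlap (3 each in the direct comparisons), the 5 highest by RPKM, those called alike in all 4 comparisons with Scramble (ZNF320, with all its coding words shared, also met this but is not described), and the first and last. Members and lists were chosen with earlier results of these data known. KRAB, finger and shared-word matches come from GENCODE 29 transcripts translated here. A listed gene that matched no identifier (UHRF1) was not analysed here. Some marker genes are not reported here.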

Additional observations from a re-analysis of the deposited data

Results flagged for a closer look

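In 15 members the hairpin groups lay on opposite sides of Scramble, each side passing the test. The direct difference passed too, which the choice of the 15 made nearly certain, so it adds no evidence. With the near-identical pairs summed, 32 of the 69 member calls in RNF2 shRNA2 against Scramble were kept. That of ZNF787 was lost (adjusted p = 0.102), and how many of the 15 stay on opposite sides was not counted. Another 31 of the 164 tested members were called on the same side in both, beside 3281 of all 18478 genes tested. Both comparisons share the Scramble libraries. The 15 are 9.15% of the members tested, beside 11.9% of all genes tested. The differences of RNF2 shRNA2 from RNF2 shRNA1 on the log2 scale were 1.18 for ZNF296, 1.03 for ZNF480, 0.89 for ZNF30, 0.77 for ZNF416, 0.73 for ZNF708, 0.72 for ZNF787, 0.63 for ZNF551, 0.63 for ZNF557, 0.58 for ZNF302 and 0.41 for ZNF574, all higher in RNF2 shRNA2. They were -0.53 for ZNF766, -0.77 for ZNF555, -0.95 for ZNF880, -1.10 for ZNF83 and -1.19 for ZNF808, all lower in RNF2 shRNA2. Adjusted p ran from 5.82e-17 (ZNF83) to 0.000461 (ZNF787). RNF2 itself was not reduced in the libraries labelled RNF2 shRNA2 and BMI1 was, and the part of this in the differences was not tested. ZNF296 was also on opposite sides of Scramble in the compound groups, 1.22 log2 higher under GW-516 than under PRT4165 (adjusted p = 1.41e-07).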

How the results depend on the processing

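Over 73 named results and their alternatives, 1359 values kept direction and call, 76 kept direction and lost the call, and 0 reversed; 56 of the 73 kept their call under every alternative run. Counts of members moved more. With the near-identical pairs summed (7 samples, 2 residual degrees of freedom), 25 members were lower in RNF2 shRNA1, 17 higher and 16 lower in RNF2 shRNA2, 3 higher and 31 lower under PRT4165, 14 higher and 23 lower under GW-516, and 10 higher in GW-516 against PRT4165. At an adjusted p below 0.01, 24 were higher and 20 lower in RNF2 shRNA2, 6 higher under PRT4165 and 18 higher in GW-516 against PRT4165. Leaving out 1 library at a time gave 29 to 46 lower in RNF2 shRNA1, 24 to 40 higher and 15 to 33 lower in RNF2 shRNA2, 5 to 13 higher and 31 to 48 lower under PRT4165, 26 to 44 lower under GW-516 and 19 to 38 higher in GW-516 against PRT4165. The lowest counts came without a Scramble library, or without a GW-516 library in the last 2 (26 and 19); a lone library left in a group is assumed to vary like the other groups. With a filter of 1 CPM, 32 members were higher and 32 lower under GW-516. The replicate block gave 45 higher and 42 lower in RNF2 shRNA1, 36 and 30 in RNF2 shRNA2, 11 and 48 under PRT4165, and 23 and 42 under GW-516; same-numbered libraries shared only a number, since the 10 correlations of their deviations ran from -0.121 to 0.0213, and the block ended no named call. Gaps of 500 kb gave 20 clusters. The cause of these shifts was not tested, and at depths of 65877850 to 108380198 counts the silent members are limited to the levels given with them.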
